A study of Homo sapiens with 24 samples.

Results

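The 10 genes described here encode secreted chemokines and cytokines (CCL2, CCL3, CCL4, CXCL2, CXCL3, IL1B and TNF), the adhesion receptor ICAM1, and the feedback inhibitors NFKBIA and TNFAIP3. They were chosen by gene symbol, with earlier results of these data known, and all 10 were found among the 30373 genes and transcripts of the deposited expression table. RNA was measured by poly-A sequencing in 4 established human cell lines, SKM-1, MV-4-11 and Kasumi-1 from acute myeloid leukaemia (AML) and NCI-H1299 from non-small cell lung cancer. Every line was exposed for 24 h to ABBV-744 at 200 nM, to ABBV-075 at 100 nM, or to the vehicle DMSO, and each of the 12 groups holds 2 libraries. ABBV-744 binds selectively to the second bromodomain (BD2) of the BET proteins, which read acetylated histones, whereas ABBV-075 (mivebresib) binds the first and the second. Lung cancer is represented by a single line. Values are FPKM, fragments per kilobase of transcript scaled to library size, so levels of different genes can be set side by side per length.

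NF-kB is a family of transcription factors held in the cytoplasm by inhibitors of the IkB family. Signals such as TNF and IL-1 lead to degradation of the inhibitor, and the freed dimers then switch on chemokines, cytokines and adhesion molecules. Among their targets are NFKBIA, which encodes the inhibitor IkB-alpha itself, and TNFAIP3, which encodes the ubiquitin-editing enzyme A20, so that the response restrains itself. In the blood lineages monocytes and macrophages are the best known sources of these chemokines and of TNF and IL-1 beta, and BET proteins are known to act as co-activators at many NF-kB targets.

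Leucocyte markers were high in the leukaemia lines and low or absent in the lung line. All 6 of 6 leucocyte markers reached 1 FPKM in SKM-1, MV-4-11 and Kasumi-1, whereas in NCI-H1299 PTPRC, SPI1, CD53 and LAPTM5 stayed under 1 FPKM in every library, CORO1A measured 1.91 to 2.59 FPKM and LCP1 reached 1.24 FPKM. The monocyte receptor CD14 stayed under 1 FPKM in every library of the 4 lines, and NCI-H1299 lacked CDH1, EPCAM and KRT19 at that level while its KRT8 and KRT18 were high. RUNX1T1, the partner in the RUNX1 fusion of Kasumi-1, was at 29.9 to 53.7 FPKM there and under 1 FPKM in the other lines. The pairs of libraries differed in how close they were. The log2 values of the SKM-1 DMSO libraries differed by an SD of 0.694 across genes and those of Kasumi-1 with ABBV-075 by 0.513, against 0.198 to 0.322 in the other 10 groups. SKM-1 DMSO replicate 2 stood apart in further ways. Mitochondrial genes took 22.3% of its FPKM sum, against 6.65% to 16.3% in the other 23 libraries, and it read 0.784 FPKM of RUNX1T1 and 2.71 FPKM of KRT18, against at most 0.0434 and 0.387 FPKM in the other 5 SKM-1 libraries. Most member results that rest on the SKM-1 DMSO libraries are therefore given with and without that library, and the list counts of SKM-1 likewise. Sums of CCL3 or CCL4 with their near-identical copies are given with all libraries only. The part of these features in the results was not tested.

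The members differed in where they were expressed. NFKBIA and ICAM1 reached 1 FPKM in all 24 libraries and TNFAIP3 in 21, whereas CCL3, IL1B and TNF each did so in 12 libraries, CXCL2 in 10, CCL4 in 5, CCL2 in 4 and CXCL3 in none. A gene was tested in a line where at least 2 of its libraries reached 1 FPKM. This admitted 7 members in SKM-1 (all but CCL2, CXCL2 and CXCL3), 7 in MV-4-11 (all but CCL4, CXCL2 and CXCL3) and 4 in Kasumi-1 and NCI-H1299 (CXCL2, ICAM1, NFKBIA and TNFAIP3).

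**Figure D1:**
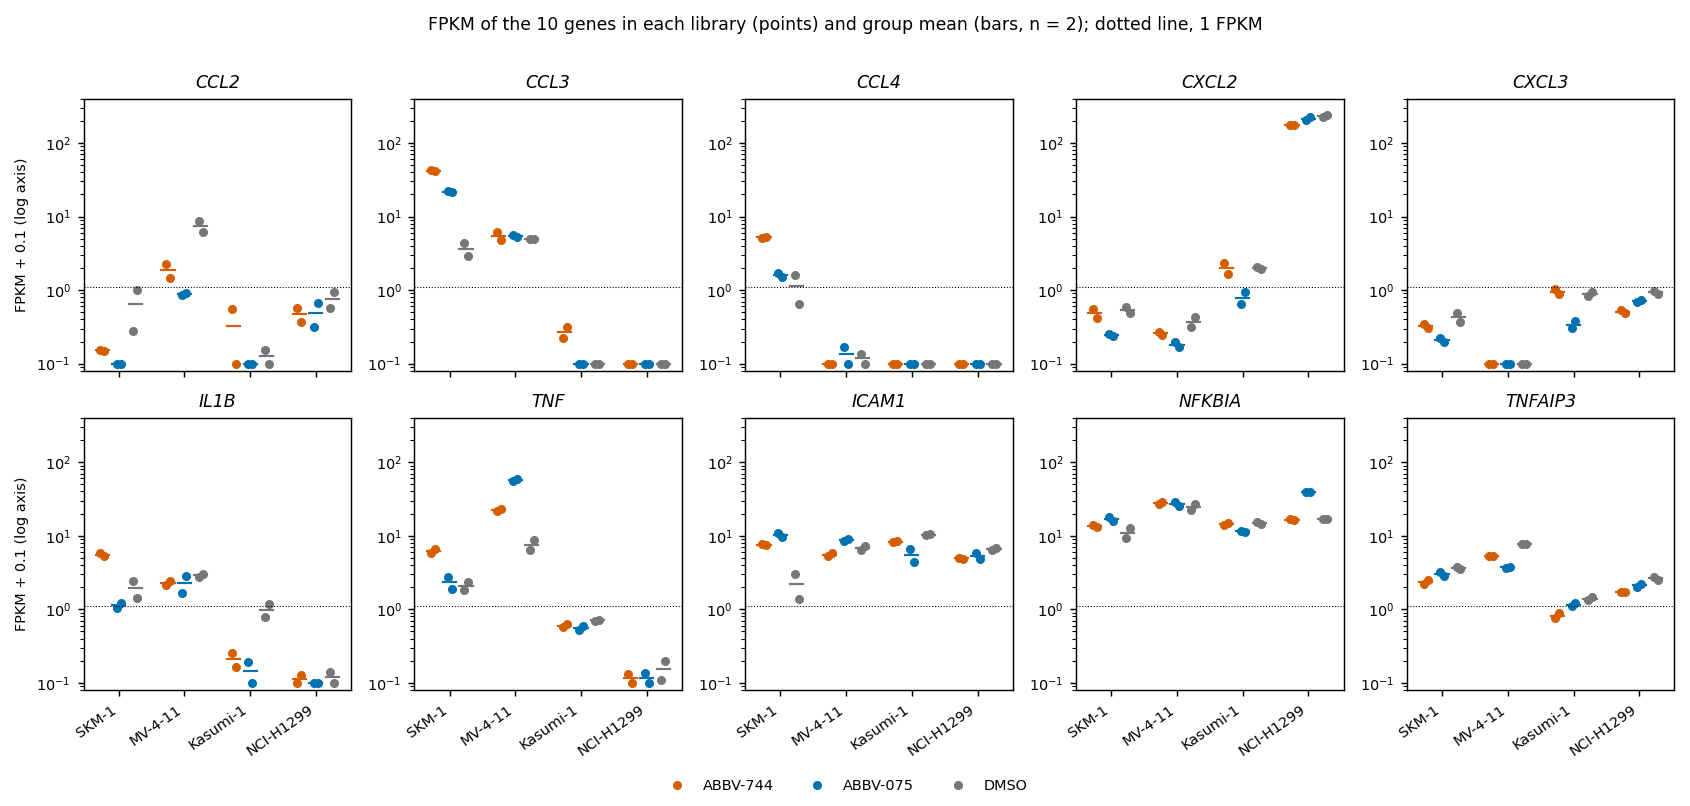
Each panel plots the level of a gene, as FPKM + 0.1 on a log axis, in the 24 libraries (points), with the mean of the 2 libraries of a group as a bar; within each line the groups are ABBV-744, ABBV-075 and DMSO. CXCL2 lies between 175 and 241 FPKM in every NCI-H1299 library and at or under 2.25 FPKM elsewhere, TNF is highest in MV-4-11 with ABBV-075 and CCL3 is highest in SKM-1 with ABBV-744.

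Each compound was first set against DMSO in each line. Tests were done with limma on log2(FPKM + 1) over all genes of the table, and a gene was called when its p adjusted over all genes of the comparison was under 0.05. On this scale differences of low genes are understated. The 2 comparisons of a line share its DMSO libraries, so that their values are given side by side and are not independent. Because the members were chosen with earlier results of these data known, their counts beside the shares of all genes are a description and no test. In SKM-1 with ABBV-744, 6 of 7 tested members were called, 5 of them higher, in a comparison that called 27.4% of all genes. With ABBV-075 6 of 7 were called, 4 higher and 2 lower, against 61.3% of all genes. In MV-4-11, 3 of 7 were called with ABBV-744 (11.4% of all genes) and 3 of 7 with ABBV-075 (42.4%), in each case TNF higher and CCL2 and TNFAIP3 lower. In Kasumi-1, ABBV-744 lowered TNFAIP3, the only 1 of 4 called (23.6% of all genes), and ABBV-075 lowered CXCL2, ICAM1 and NFKBIA, 3 of 4 (57.3%). In NCI-H1299, 1 of 4 was called with ABBV-744 (5.35% of all genes), TNFAIP3, which was lower, and 2 of 4 with ABBV-075 (47.1%), NFKBIA higher and TNFAIP3 lower. By direction, ABBV-744 called 14.9% of all genes higher and 12.5% lower in SKM-1, 4.61% and 6.75% in MV-4-11, 8.69% and 15% in Kasumi-1, and 1.4% and 3.95% in NCI-H1299. ABBV-075 called 32% higher and 29.2% lower in SKM-1, 20.3% and 22.1% in MV-4-11, 24.7% and 32.6% in Kasumi-1, and 20.6% and 26.5% in NCI-H1299. The shares of members called in MV-4-11 and NCI-H1299 with ABBV-075, and in Kasumi-1 with ABBV-744, were thus close to those of all genes. In SKM-1 7 of 7 members were called with ABBV-744 and 5 of 7 with ABBV-075 when SKM-1 DMSO replicate 2 was left out. Separate cultures are not stated for the paired libraries of a group, so p-values may measure technical spread only.

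**Figure D2:**
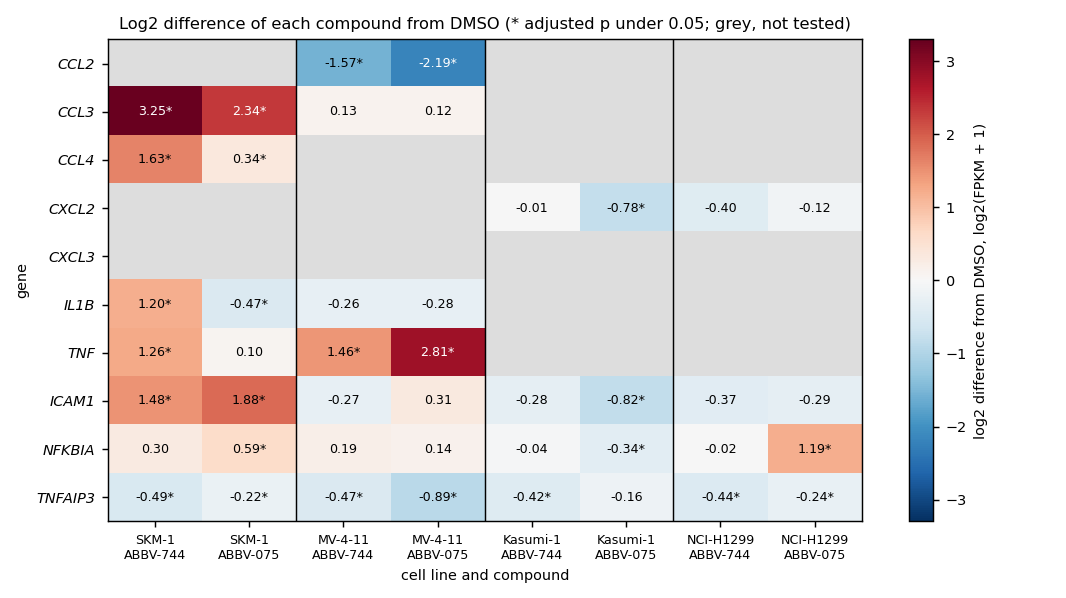
Rows are the 10 genes and columns the 8 comparisons of a compound with DMSO, grouped by cell line; colour and number give the log2 difference on the log2(FPKM + 1) scale, an asterisk a call at an adjusted p under 0.05, and grey cells were not tested. CCL3 in SKM-1 (3.25 with ABBV-744) and TNF in MV-4-11 (2.81 with ABBV-075) hold the highest values and CCL2 in MV-4-11 the lowest (-2.19 with ABBV-075).

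CCL3 and CCL4 (MIP-1 alpha and MIP-1 beta), chemokines that attract monocytes and lymphocytes, rose in SKM-1 with ABBV-744. CCL3 measured 42.3 and 41.2 FPKM with ABBV-744, 21.9 and 21.5 FPKM with ABBV-075, and 4.25 and 2.84 FPKM with DMSO. Every treated library lay above both DMSO libraries, and the 2 compounds did not overlap. The log2 difference from DMSO was 3.25 ± 0.12 with ABBV-744 (SE, 2 libraries per group; limma adjusted p = 1.24e-10) and 2.34 ± 0.12 with ABBV-075 (adjusted p = 2.90e-10). Without SKM-1 DMSO replicate 2 these were 3.03 and 2.11, both called. In MV-4-11 CCL3 changed little: it measured 6.12 and 4.71 FPKM with ABBV-744, 5.53 and 5.14 FPKM with ABBV-075, and 4.83 and 4.84 FPKM with DMSO, groups that overlapped for ABBV-744, and the log2 differences of 0.13 ± 0.12 and 0.12 ± 0.12 were not called (95% intervals -0.13 to 0.39 and -0.14 to 0.38). The ABBV-744 response in SKM-1 exceeded that in MV-4-11 by 3.12 ± 0.17 (adjusted p = 5.40e-08, in a comparison that called 5.43% of all genes) and the ABBV-075 response by 2.22 ± 0.17 (adjusted p = 2.97e-07, 29.2% of all genes), and without SKM-1 DMSO replicate 2 by 2.90 and 1.99, both called. CCL3 was at or near 0 in Kasumi-1 and listed at 0 in all 6 libraries of NCI-H1299.

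CCL4 passed the filter in SKM-1 only. It measured 5.01 and 5.23 FPKM there with ABBV-744, 1.63 and 1.38 FPKM with ABBV-075, and 1.52 and 0.553 FPKM with DMSO. The ABBV-744 libraries stood clear of the other 4, and the ABBV-075 and DMSO libraries overlapped. The log2 difference from DMSO was 1.63 ± 0.14 with ABBV-744 (limma adjusted p = 6.24e-07) and 0.34 ± 0.14 with ABBV-075 (adjusted p = 0.0428). Without SKM-1 DMSO replicate 2 the first was 1.28 and still called, and the second was -0.01 and not called (adjusted p = 0.917). The difference with ABBV-075 was also not called without either ABBV-075 library (0.27 without replicate 1 and 0.41 without replicate 2), with an added constant of 0.1 (0.64, adjusted p = 0.0892) or with SKM-1 fitted alone (adjusted p = 0.296). The highest CCL4 value in the other 3 lines was 0.0686 FPKM.

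CCL3 and CCL4 have near-identical copies in the human genome, CCL3L1, CCL3L3 and CCL4L2, and fragments from a copy can be credited to another row, so that the split between rows is uncertain. In SKM-1 the copies held most of the signal. CCL3L1 measured 110.3 and 111.6 FPKM with ABBV-744, 59.3 and 44.2 FPKM with ABBV-075, and 14.6 and 8.17 FPKM with DMSO. CCL3L3 measured 45.3 and 49.4 FPKM with ABBV-744, 12.8 and 8.44 FPKM with ABBV-075, and 8.98 and 2.70 FPKM with DMSO. CCL4L2 measured 23.4 and 32.5 FPKM with ABBV-744, 4.97 and 5.11 FPKM with ABBV-075, and 6.83 and 1.60 FPKM with DMSO. In each of the 3 rows the ABBV-744 libraries were the highest, and with ABBV-075 CCL3L3 and CCL4L2 overlapped DMSO. Summed over CCL3, CCL3L1 and CCL3L3, the level in SKM-1 averaged 200.1 ± 3.0 FPKM with ABBV-744, 84.0 ± 14.0 FPKM with ABBV-075 and 20.7 ± 10.0 FPKM with DMSO (SD, n = 2 each), and the CCL3 row held 20.9%, 25.8% and 17.1% of the sum in these groups. In MV-4-11 the CCL3 row held 92.6% to 95.8% of it. The summed log2 difference in SKM-1 was 3.29 with ABBV-744 and 2.04 with ABBV-075, both called. Between the lines the choice of row mattered: the log2 difference of SKM-1 from MV-4-11 in DMSO was -0.38 ± 0.12 for the CCL3 row, which was not called without SKM-1 DMSO replicate 2 (-0.15) or without either MV-4-11 library (-0.38), and 1.77 for the sum. For CCL4 summed with CCL4L2 the difference was 2.64 with ABBV-744, called, and 0.47 with ABBV-075, not called (adjusted p = 0.186). The CCL4 row alone gave 1.63 with ABBV-744, but the added constant of 1 weighs more on its low values. Mean FPKM went from 1.04 with DMSO to 5.12 with ABBV-744 in that row, and from 5.25 to 33.1 in the sum. Between the compounds the CCL4 sum differed by 2.16 (ABBV-744 minus ABBV-075, called). The differences of CCL3L1, CCL3L3 and CCL4L2 without SKM-1 DMSO replicate 2 were 2.85, 2.28 and 1.87 with ABBV-744, all called. With ABBV-075 they were then 1.75, called higher, 0.19, not called, and -0.38, called lower (adjusted p = 0.0240), while with that library CCL4L2 differed by 0.42 and was not called.

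**Figure D3:**
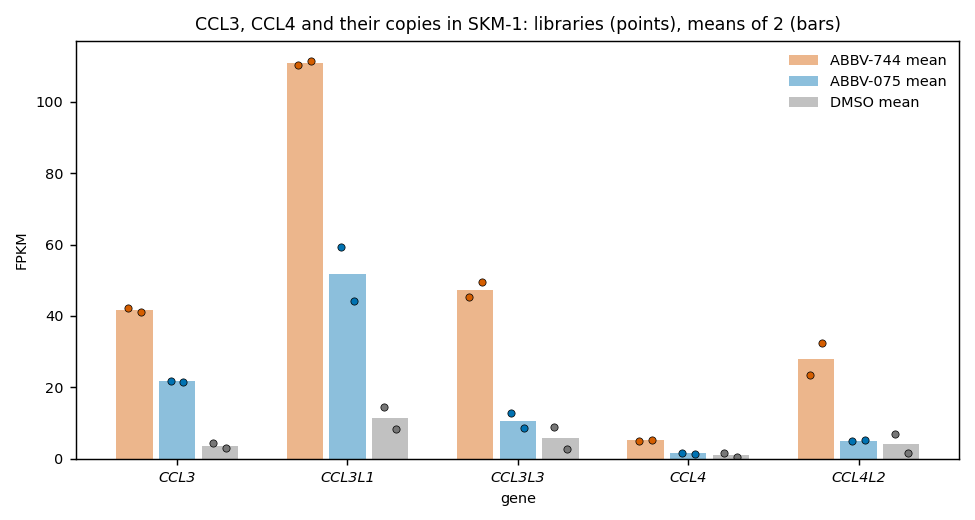
Bars give the mean FPKM of 2 SKM-1 libraries and points the libraries, for CCL3, CCL4 and their near-identical copies with ABBV-744, ABBV-075 and DMSO. In all 5 rows the ABBV-744 libraries are the highest, and CCL3L1 is the tallest, at 110.3 and 111.6 FPKM.

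CCL2 (MCP-1), the ligand of CCR2 and a main attractant of monocytes, fell in MV-4-11. It measured 2.19 and 1.36 FPKM with ABBV-744, 0.761 and 0.814 FPKM with ABBV-075, and 8.51 and 6.0 FPKM with DMSO. The 3 groups did not overlap, and the ABBV-075 libraries lay under 1 FPKM. CCL2 differed from DMSO on the log2 scale by -1.57 ± 0.22 with ABBV-744 (limma adjusted p = 0.000206) and -2.19 ± 0.22 with ABBV-075 (adjusted p = 1.09e-06). With 0.1 in place of 1 as the added constant, the ABBV-744 difference was -1.99 and not called (adjusted p = 0.0770). CCL2 stayed under 1 FPKM in all 18 libraries of the other lines. Its receptor CCR2 was lower in the same cells, at 5.0 and 5.12 FPKM with ABBV-744, 0.598 and 0.355 FPKM with ABBV-075, and 52.3 and 51.5 FPKM with DMSO, log2 differences of -3.13 ± 0.11 and -5.17 ± 0.11 (adjusted p = 7.99e-11 and 3.84e-14).

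CXCL2 and CXCL3 (GRO beta and GRO gamma) attract neutrophils through CXCR2 and lie near each other on chromosome 4. Their promoters are shown because they share a stretch of 37 bases, while the levels of the 2 genes lay far apart in NCI-H1299. The windows run from 250 bases before to 50 bases after the transcription start, on the gene's strand, from RefSeq on GRCh38.p14, and were matched by symbol since the build behind the expression table is not given in the sources used here. Capitals mark matches of the NF-kB word on either strand, GGG followed by any 3 bases and TTCC. The CXCL2 window lies at chr4:74099146-74099445 (minus strand) and the CXCL3 window at chr4:74038640-74038939 (minus strand).
CXCL2: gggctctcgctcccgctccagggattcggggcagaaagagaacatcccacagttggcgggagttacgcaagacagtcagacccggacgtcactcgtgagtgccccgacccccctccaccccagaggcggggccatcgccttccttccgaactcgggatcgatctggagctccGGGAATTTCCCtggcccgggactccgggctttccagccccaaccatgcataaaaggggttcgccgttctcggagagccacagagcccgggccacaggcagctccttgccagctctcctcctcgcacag
CXCL3: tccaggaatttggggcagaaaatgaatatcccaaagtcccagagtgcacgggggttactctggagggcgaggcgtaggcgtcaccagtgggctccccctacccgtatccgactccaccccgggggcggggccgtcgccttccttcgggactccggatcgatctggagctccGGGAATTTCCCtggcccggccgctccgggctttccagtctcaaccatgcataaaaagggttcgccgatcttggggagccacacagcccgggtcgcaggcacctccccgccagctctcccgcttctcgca
In both windows a match on one strand overlaps a match on the other, so that the capitals run over 11 bases, and the longest stretch shared by the windows is 37 bases and holds them. The word occurs in 6.52% of the 35116 promoter windows of the same table. These are matches of letters, and binding was not measured.

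CXCL2 was by far higher in NCI-H1299 than elsewhere, and CXCL3 was low in every line. In NCI-H1299 CXCL2 measured 175 and 176 FPKM with ABBV-744, 204 and 223 FPKM with ABBV-075, and 223 and 241 FPKM with DMSO. CXCL3 measured 0.437 and 0.382 FPKM there with ABBV-744, 0.589 and 0.640 FPKM with ABBV-075, and 0.881 and 0.777 FPKM with DMSO. The related CXCL1 stayed at or under 1.78 FPKM in the line, so the CXCL2 row held at least 98.9% of the sum of the 3 rows in each group. The ABBV-744 libraries of CXCL2 lay below the DMSO libraries, but the log2 difference of -0.40 ± 0.12 was not called (limma adjusted p = 0.0634), although it was called with NCI-H1299 fitted alone (adjusted p = 0.00566), nor was that of -0.12 ± 0.12 with ABBV-075 (adjusted p = 0.424).

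In Kasumi-1 CXCL2 fell with ABBV-075. It measured 2.25 and 1.55 FPKM with ABBV-744, 0.540 and 0.841 FPKM with ABBV-075, and 1.93 and 1.86 FPKM with DMSO. The ABBV-075 libraries were the lowest and under 1 FPKM, and the ABBV-744 libraries lay on both sides of DMSO. CXCL2 differed from DMSO by -0.78 ± 0.12 (log2) with ABBV-075 (limma adjusted p = 3.71e-05) and -0.01 ± 0.12 with ABBV-744 (95% interval -0.26 to 0.24). The ABBV-075 response differed between Kasumi-1 and NCI-H1299 by -0.66 ± 0.17 (adjusted p = 0.00867, 24.5% of all genes called). CXCL3, never tested because it stayed under 1 FPKM, measured 0.926 and 0.776 FPKM in Kasumi-1 with ABBV-744, 0.203 and 0.275 FPKM with ABBV-075, and 0.727 and 0.857 FPKM with DMSO, so that its ABBV-075 libraries also lay lowest. It was listed at 0 in all 6 libraries of MV-4-11 and measured 0.0958 to 0.395 FPKM in SKM-1. CXCL2 measured 0.0674 to 0.493 FPKM in SKM-1 and MV-4-11.

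TNF, the cytokine that sets off NF-kB signalling through its receptors, rose in MV-4-11 with either compound. It measured 21.4 and 22.6 FPKM with ABBV-744, 55.7 and 59.6 FPKM with ABBV-075, and 6.36 and 8.54 FPKM with DMSO. The 3 groups stood clear of each other in the order ABBV-075, ABBV-744 and DMSO. On the log2 scale the rise was 1.46 ± 0.14 with ABBV-744 (limma adjusted p = 2.76e-06) and 2.81 ± 0.14 with ABBV-075 (adjusted p = 2.32e-10).

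In SKM-1 the order of the compounds was the other way round. TNF measured 5.65 and 6.60 FPKM with ABBV-744, 2.63 and 1.80 FPKM with ABBV-075, and 1.71 and 2.27 FPKM with DMSO. The ABBV-744 libraries stood clear of the other 4, and the ABBV-075 and DMSO libraries overlapped. The log2 difference was 1.26 ± 0.14 with ABBV-744 (limma adjusted p = 8.94e-06) and 0.10 ± 0.14 with ABBV-075, which was not called (95% interval -0.19 to 0.39). Without SKM-1 DMSO replicate 2 these were 1.39, called, and 0.24, not called. Between SKM-1 and MV-4-11 the ABBV-075 response of TNF differed by -2.71 ± 0.19 (adjusted p = 1.22e-07), and the ABBV-744 response by -0.20 ± 0.19, which was not called (adjusted p = 0.616). These differences of responses were -2.57, called, and -0.06, not called, without SKM-1 DMSO replicate 2. TNF was untested in Kasumi-1, at 0.416 to 0.621 FPKM, and in NCI-H1299, at or under 0.0988 FPKM.

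IL1B, which encodes the fever-inducing cytokine IL-1 beta, moved in opposite directions with the compounds in SKM-1. It measured 5.73 and 5.13 FPKM with ABBV-744, 0.946 and 1.11 FPKM with ABBV-075, and 2.34 and 1.34 FPKM with DMSO. The ABBV-744 libraries were the highest and the ABBV-075 libraries the lowest, with no overlap. On the log2 scale IL1B differed from DMSO by 1.2 ± 0.17 with ABBV-744 (limma adjusted p = 8.65e-05) and -0.47 ± 0.17 with ABBV-075 (adjusted p = 0.0236). Without SKM-1 DMSO replicate 2 these were 0.94 and -0.72, both called. The fall with ABBV-075 was not called without SKM-1 DMSO replicate 1 (-0.21, adjusted p = 0.292), without ABBV-075 replicate 1 (-0.41, adjusted p = 0.114), or with an added constant of 0.1 (-0.74, adjusted p = 0.0828).

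In MV-4-11 IL1B measured 2.01 and 2.31 FPKM with ABBV-744, 1.57 and 2.77 FPKM with ABBV-075, and 2.64 and 2.94 FPKM with DMSO. The ABBV-075 libraries overlapped DMSO, and neither the log2 difference of -0.26 ± 0.17 with ABBV-744 nor that of -0.28 ± 0.17 with ABBV-075 was called (95% intervals -0.62 to 0.09 and -0.64 to 0.07). Without ABBV-075 replicate 2 the ABBV-075 difference was -0.56 and called (adjusted p = 0.0201). The ABBV-744 response in SKM-1 exceeded that in MV-4-11 by 1.46 ± 0.23 (limma adjusted p = 0.00156), and by 1.21 without SKM-1 DMSO replicate 2, still called. In Kasumi-1 IL1B was untested. It measured 0.154 and 0.0622 FPKM there with ABBV-744, 0.0899 and 0 FPKM with ABBV-075, and 0.688 and 1.07 FPKM with DMSO, so both DMSO libraries lay above the treated ones.

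Markers of the myeloid lineage also differed between the groups of SKM-1. Of the 6 myeloid genes (CD33, MPO, LYZ, CSF1R, CD14 and FCGR1A), 5 reached 1 FPKM in the line and CD14 did not. Their summed level, most of which was the neutrophil enzyme MPO outside ABBV-075, was 999 to 1204 FPKM with ABBV-744, 70.5 to 81.4 FPKM with ABBV-075, and 2715 to 3773 FPKM with DMSO. Without MPO the sum was 320.0 to 324 FPKM with ABBV-744, 52.5 to 54.5 FPKM with ABBV-075, and 387 to 400 FPKM with DMSO, and CD33 measured 38.6 and 40.8 FPKM with ABBV-744, 21.2 and 18.2 FPKM with ABBV-075, and 46.9 and 32.3 FPKM with DMSO. MPO alone thus held most of the gap between ABBV-744 and DMSO. The 6 leucocyte markers of SKM-1 summed to 2449 to 2650 FPKM with ABBV-744, 1527 to 1726 FPKM with ABBV-075, and 1124 to 1844 FPKM with DMSO. Among these SPI1 measured 128 and 158 FPKM with ABBV-744, 14.6 and 11.4 FPKM with ABBV-075, and 149 and 119 FPKM with DMSO. PTPRC measured 42.4 and 43.2 FPKM with ABBV-075 against 99.5 and 111 FPKM with DMSO. CD53, LCP1 and LAPTM5 were higher with ABBV-075 than with DMSO, and for CORO1A these libraries overlapped. CSF1R, the receptor for the monocyte growth factor, measured 62.1 and 75.0 FPKM with ABBV-744, 0.767 and 0.404 FPKM with ABBV-075, and 76.5 and 39.9 FPKM with DMSO. In MV-4-11 the sum of the 6 myeloid genes was 665 to 720 FPKM with ABBV-744, 479 to 500.0 FPKM with ABBV-075, and 1226 to 1352 FPKM with DMSO. In Kasumi-1, where MPO held nearly all of the myeloid sum, the other 5 genes summed to 23.7 to 25.9 FPKM with ABBV-744, 10.3 to 14.4 FPKM with ABBV-075, and 65.0 to 68.6 FPKM with DMSO. The leucocyte sum of Kasumi-1 was 339 to 399 FPKM with ABBV-744, 190 to 225 FPKM with ABBV-075, and 398 to 406 FPKM with DMSO. Within it SPI1, a myeloid transcription factor, measured 23.7 and 27.9 FPKM with ABBV-744, 4.21 and 1.70 FPKM with ABBV-075, and 51.9 and 44.9 FPKM with DMSO. CORO1A, the largest of the 6 genes in DMSO, measured 66.5 and 33.3 FPKM with ABBV-075 and 191 and 184 FPKM with DMSO. LCP1 and LAPTM5 were also lower with ABBV-075. The leucocyte genes did not all fall, however. PTPRC (25.6 and 31.1 FPKM against 18.1 and 24.1) and CD53 (103.6 and 97.4 against 74.2 and 90.3) were higher with ABBV-075 than with DMSO. The leucocyte sum and that of the 5 myeloid genes were lowest in the ABBV-075 libraries of Kasumi-1, in which CXCL2, ICAM1 and NFKBIA were also called lower. In SKM-1 the sum of the 5 myeloid genes was likewise lowest with ABBV-075, while CCL3, CCL4, ICAM1 and NFKBIA were called higher there and IL1B and TNFAIP3 lower. In MV-4-11, where the myeloid sum was lowest with ABBV-075 too, TNF was called higher and CCL2 and TNFAIP3 lower. The part of these markers in the members' values was not tested, and in bulk RNA fewer cells of a type and less RNA per cell cannot be told apart.

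ICAM1, the adhesion receptor through which leucocyte integrins grip other cells, was present in all lines and its response depended on the line. In SKM-1 it measured 7.51 and 7.33 FPKM with ABBV-744, 10.6 and 9.52 FPKM with ABBV-075, and 2.95 and 1.29 FPKM with DMSO. Every treated library lay above both DMSO libraries. The log2 difference was 1.48 ± 0.19 with ABBV-744 (limma adjusted p = 5.42e-05) and 1.88 ± 0.19 with ABBV-075 (adjusted p = 6.22e-07), and 1.09 and 1.49 without SKM-1 DMSO replicate 2, both called. Fitted with the SKM-1 libraries alone, the ABBV-744 difference was not called (adjusted p = 0.0509).

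In Kasumi-1 ICAM1 measured 8.04 and 8.42 FPKM with ABBV-744, 6.54 and 4.34 FPKM with ABBV-075, and 9.96 and 10.5 FPKM with DMSO. The groups did not overlap, with ABBV-075 lowest and DMSO highest. The fall of -0.82 ± 0.19 with ABBV-075 was called (limma adjusted p = 0.00195), and it was -0.58 without ABBV-075 replicate 2, still called. The difference of -0.28 ± 0.19 with ABBV-744 was not called. In MV-4-11 (-0.27 with ABBV-744 and 0.31 with ABBV-075) and NCI-H1299 (-0.37 and -0.29) no ICAM1 difference was called, with levels between 4.67 and 8.81 FPKM over both lines, although both NCI-H1299 differences were called with that line fitted alone (adjusted p = 0.0256 with ABBV-744 and 0.0213 with ABBV-075). The ABBV-075 response in SKM-1 exceeded that in Kasumi-1 by 2.70 ± 0.28 (adjusted p = 6.91e-06, in a comparison that called 30.9% of all genes), and by 2.31 without SKM-1 DMSO replicate 2, still called.

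The feedback inhibitors NFKBIA and TNFAIP3 are classical NF-kB targets, and both promoter windows hold the NF-kB word. They are shown because the data set these genes apart, NFKBIA rising and TNFAIP3 falling with ABBV-075 in SKM-1 and in NCI-H1299. The falls of TNFAIP3 were small (log2 differences of -0.22 and -0.24). Neither was called with an added constant of 0.1 (limma adjusted p = 0.0819 and 0.0602), nor that in SKM-1 with the line fitted alone (adjusted p = 0.291). Both also lost their call when certain single libraries were left out, as given below. The NFKBIA window lies at chr14:35404700-35404999 (minus strand) and the TNFAIP3 window at chr6:137867009-137867308 (plus strand), with matches of the same word on either strand in capitals.
NFKBIA: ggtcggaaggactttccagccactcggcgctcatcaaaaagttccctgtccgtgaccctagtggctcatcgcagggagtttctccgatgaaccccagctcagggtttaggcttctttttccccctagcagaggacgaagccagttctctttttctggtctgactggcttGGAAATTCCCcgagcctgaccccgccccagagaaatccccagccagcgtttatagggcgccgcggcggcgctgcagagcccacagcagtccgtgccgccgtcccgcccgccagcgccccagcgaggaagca
TNFAIP3: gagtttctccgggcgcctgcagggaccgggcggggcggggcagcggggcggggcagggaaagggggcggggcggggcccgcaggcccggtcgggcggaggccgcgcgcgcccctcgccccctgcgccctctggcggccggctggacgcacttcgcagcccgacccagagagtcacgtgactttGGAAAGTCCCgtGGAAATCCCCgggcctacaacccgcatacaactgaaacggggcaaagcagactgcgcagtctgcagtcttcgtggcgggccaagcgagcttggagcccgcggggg
The NFKBIA window holds 1 match and the TNFAIP3 window 2 that do not overlap. Of the 8 members with a window in the table (all but CCL2 and CCL4), 4 hold the word, CXCL2, CXCL3, NFKBIA and TNFAIP3. The TATA word TATAAA, on the gene's strand or the other, was also held by 4 of the 8, CCL3, TNF, ICAM1 and NFKBIA, against 11.5% of all windows. CCL3 has several windows, of which only that at chr17:36090094-36090393 holds TATAAA. The 4 are thus genes with a match in any window, whereas the 11.5% is a share of windows. The absence of a word from a window says only that these letters are not there.

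NFKBIA responded most in NCI-H1299. It measured 16.5 and 16.4 FPKM with ABBV-744, 39.2 and 39.5 FPKM with ABBV-075, and 16.8 and 16.7 FPKM with DMSO. The ABBV-075 libraries stood far above the other 4, and the ABBV-744 libraries lay just under DMSO. NFKBIA differed from DMSO by -0.02 ± 0.12 with ABBV-744 on the log2 scale (95% interval -0.29 to 0.24) and 1.19 ± 0.12 with ABBV-075 (limma adjusted p = 1.45e-06).

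In SKM-1 NFKBIA measured 13.9 and 13.2 FPKM with ABBV-744, 17.7 and 15.8 FPKM with ABBV-075, and 9.28 and 12.5 FPKM with DMSO. Both treated groups lay above DMSO without overlap. The rise of 0.59 ± 0.12 with ABBV-075 was called (limma adjusted p = 0.000679). The difference of 0.30 ± 0.12 with ABBV-744 was not (adjusted p = 0.0833), and without SKM-1 DMSO replicate 2 it was 0.50 and called (adjusted p = 0.00657), while that with ABBV-075 was 0.79. Fitted with the SKM-1 libraries alone, the ABBV-075 rise was not called (adjusted p = 0.0553).

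In Kasumi-1 NFKBIA measured 13.8 and 14.8 FPKM with ABBV-744, 11.5 and 11.2 FPKM with ABBV-075, and 15.04 and 14.3 FPKM with DMSO. The ABBV-075 libraries were the lowest, and the log2 difference of -0.34 ± 0.12 was called (limma adjusted p = 0.0273), but not when any 1 of the 4 libraries was left out (adjusted p from 0.0527 to 0.122) or when libraries were rescaled by median ratios (-0.26, adjusted p = 0.133). In MV-4-11, where NFKBIA ran from 22.2 to 29.1 FPKM, the ABBV-744 libraries lay just above DMSO and the ABBV-075 libraries overlapped it, and neither difference was called (0.19 ± 0.12 with ABBV-744 and 0.14 ± 0.12 with ABBV-075). The ABBV-075 response was higher in NCI-H1299 than in the other lines. It differed by -0.59 ± 0.18 for SKM-1 minus NCI-H1299 (adjusted p = 0.0195, 29% of all genes called), by -1.04 ± 0.18 for MV-4-11 (adjusted p = 0.000804, 15.8%) and by -1.53 ± 0.18 for Kasumi-1 (adjusted p = 2.03e-05, 24.5%). The difference for SKM-1 was -0.40 and not called without SKM-1 DMSO replicate 2 (adjusted p = 0.0600).

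TNFAIP3 was the member called most often, lower with ABBV-744 in all 4 lines. In MV-4-11 it measured 5.20 and 5.13 FPKM with ABBV-744, 3.49 and 3.70 FPKM with ABBV-075, and 7.55 and 7.53 FPKM with DMSO. In SKM-1 it measured 2.08 and 2.38 FPKM with ABBV-744, 3.08 and 2.71 FPKM with ABBV-075, and 3.70 and 3.38 FPKM with DMSO. In every line both treated groups lay below DMSO with no overlap. In Kasumi-1 TNFAIP3 measured 0.661 and 0.780 FPKM with ABBV-744, 0.998 and 1.1 FPKM with ABBV-075, and 1.24 and 1.35 FPKM with DMSO. In NCI-H1299 it measured 1.60 and 1.64 FPKM with ABBV-744, 1.93 and 2.09 FPKM with ABBV-075, and 2.68 and 2.42 FPKM with DMSO. ABBV-744 gave the lower level in SKM-1, Kasumi-1 and NCI-H1299, and ABBV-075 in MV-4-11.

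With ABBV-744 the log2 differences of TNFAIP3 were -0.49, -0.47, -0.42 and -0.44 in SKM-1, MV-4-11, Kasumi-1 and NCI-H1299, each with an SE of 0.09 (limma adjusted p from 0.000646 to 0.00539). With ABBV-075 they were -0.22, -0.89, -0.16 and -0.24 in the same lines, and the Kasumi-1 value was not called (adjusted p = 0.116). The added constant of 1 shrinks these differences most in Kasumi-1, where TNFAIP3 was lowest, so like values need not mean like ratios of FPKM. An F-test of whether the response differed between the 4 lines called TNFAIP3 with ABBV-075 (adjusted p = 0.000356, 55.5% of all genes called) and not with ABBV-744 (adjusted p = 0.953, 12.4% of all genes called). Several of these calls were fragile. With ABBV-075 the fall in SKM-1 was not called without DMSO replicate 1 (-0.17, adjusted p = 0.128) or ABBV-075 replicate 2 (-0.15, adjusted p = 0.226), and that in NCI-H1299 was not called when any 1 of the 4 libraries was left out (adjusted p from 0.0508 to 0.207) or after rescaling (-0.18, adjusted p = 0.0911). With ABBV-744 the fall in NCI-H1299 was not called without DMSO replicate 1 (-0.39, adjusted p = 0.0871) or ABBV-744 replicate 1 (-0.43, adjusted p = 0.0552), and those in SKM-1 and Kasumi-1 were not called when the line was fitted alone (adjusted p = 0.154 and 0.121). Without SKM-1 DMSO replicate 2 the SKM-1 differences were -0.54 with ABBV-744 and -0.27 with ABBV-075, both called.

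Between the lines in DMSO the members had distinct orders. These 6 comparisons called from 55.7% to 63.5% of all genes (SKM-1 against MV-4-11 56.7%, against Kasumi-1 55.7% and against NCI-H1299 63.5%, MV-4-11 against Kasumi-1 55.7% and against NCI-H1299 63.3%, and Kasumi-1 against NCI-H1299 62.8%). TNFAIP3 averaged 7.54 ± 0.01 FPKM in MV-4-11, 3.54 ± 0.22 in SKM-1, 2.55 ± 0.18 in NCI-H1299 and 1.29 ± 0.07 in Kasumi-1 (SD, n = 2 each), and each neighbour in that order differed in the limma test. NFKBIA averaged 24.4 ± 3.0 FPKM in MV-4-11, 16.7 ± 0.1 in NCI-H1299, 14.7 ± 0.5 in Kasumi-1 and 10.9 ± 2.3 in SKM-1, and NCI-H1299 and Kasumi-1 did not differ beyond their spread (adjusted p = 0.230). The NFKBIA difference of SKM-1 from Kasumi-1 was not called without SKM-1 DMSO replicate 1 (-0.22) or Kasumi-1 DMSO replicate 1 (-0.38). ICAM1 averaged 10.2 ± 0.4 FPKM in Kasumi-1, 6.76 ± 0.69 in MV-4-11, 6.49 ± 0.16 in NCI-H1299 and 2.12 ± 1.18 in SKM-1, of which MV-4-11 and NCI-H1299 were not told apart (adjusted p = 0.841). The ICAM1 differences of Kasumi-1 from MV-4-11 and from NCI-H1299 each lost their call without any 1 of 3 of the 4 libraries (-0.57 to -0.44 for MV-4-11 minus Kasumi-1 and 0.55 to 0.61 for Kasumi-1 minus NCI-H1299). TNF averaged 7.45 ± 1.54 FPKM in MV-4-11 and 1.99 ± 0.40 in SKM-1, a log2 difference of -1.50 ± 0.14 for SKM-1 minus MV-4-11 (adjusted p = 1.91e-07) that was -1.63 without SKM-1 DMSO replicate 2. The SKM-1 differences of TNFAIP3, NFKBIA and ICAM1 from the other lines were also called without that library. CXCL2 averaged 232 ± 13 FPKM in NCI-H1299 and 1.89 ± 0.05 in Kasumi-1.

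ABBV-744 at 200 nM was then set against ABBV-075 at 100 nM within each line. The doses differ, so the differences belong to these groups and not to the compounds at a common dose. In SKM-1 5 of 7 members were called (43.6% of all genes), in MV-4-11 3 of 7 (21.9%), in Kasumi-1 3 of 4 (37.7%) and in NCI-H1299 1 of 4 (34.6%). In SKM-1 the secreted signals were higher with ABBV-744, CCL3 by 0.91 ± 0.12, CCL4 by 1.29 ± 0.14, IL1B by 1.67 ± 0.17 and TNF by 1.16 ± 0.14 on the log2 scale (limma adjusted p from 9.94e-07 to 2.16e-05). TNFAIP3 was lower with ABBV-744 there (-0.27 ± 0.09, adjusted p = 0.0181), though not without ABBV-075 replicate 1 (-0.20, adjusted p = 0.144) or ABBV-744 replicate 1 (-0.20, adjusted p = 0.157).

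In MV-4-11 the sign for TNF was reversed, at -1.35 ± 0.14 (limma adjusted p = 3.43e-06). ICAM1 was also lower with ABBV-744 in that line (-0.58 ± 0.19, adjusted p = 0.0444) and TNFAIP3 higher (0.42 ± 0.09, adjusted p = 0.00198). The ICAM1 call was lost when any 1 of the 4 libraries was left out (adjusted p from 0.103 to 0.201). CCL3 in MV-4-11 differed by 0.01 ± 0.12, with a 95% interval from -0.25 to 0.27. CCL2 was called higher with ABBV-744 there only without ABBV-744 replicate 2 (0.84, adjusted p = 0.0474) or with the line fitted alone (0.62, adjusted p = 0.0292). In Kasumi-1 CXCL2 (0.77 ± 0.12, adjusted p = 0.000116) and ICAM1 (0.54 ± 0.19, adjusted p = 0.0393) were higher and TNFAIP3 lower (-0.25 ± 0.09, adjusted p = 0.0311) with ABBV-744. The last 2 were not called without Kasumi-1 ABBV-075 replicate 2, which gave 0.29 and -0.22, nor without either ABBV-744 library. In NCI-H1299 NFKBIA was lower with ABBV-744, by -1.21 ± 0.12 (adjusted p = 2.93e-06), and the other 3 tested members were not called. After rescaling by median ratios CXCL2 (-0.35) and TNFAIP3 (-0.24) were called lower there as well, and CXCL2 was also called with the line fitted alone (-0.28, adjusted p = 0.00584).

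**Figure D4:**
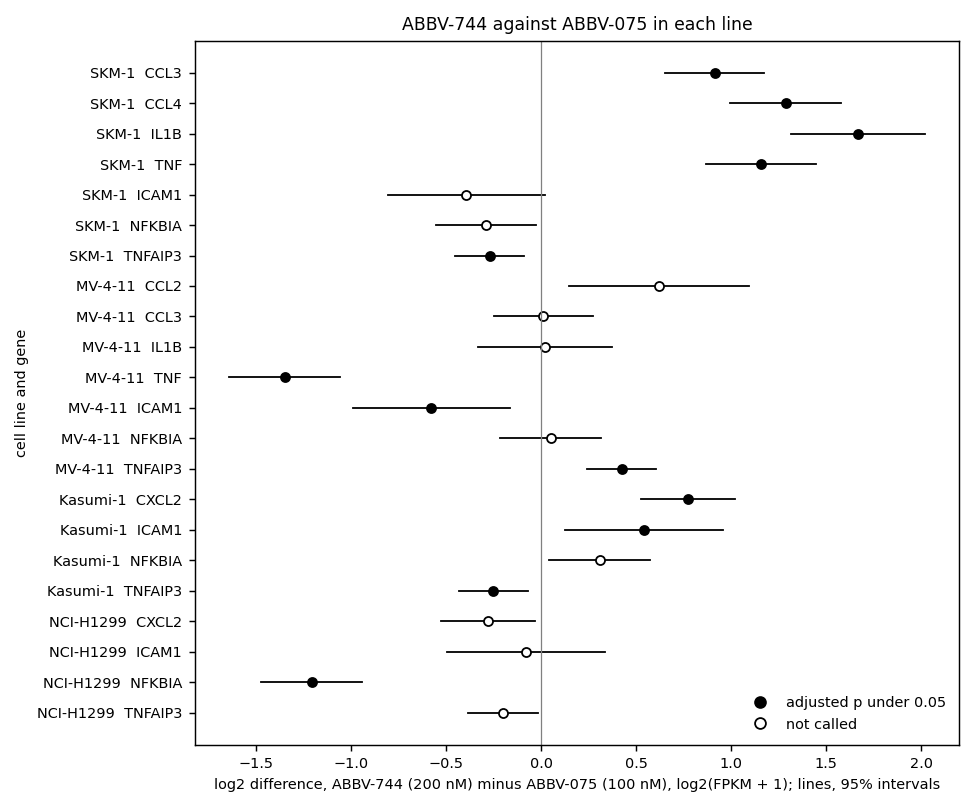
Points give the log2 difference of ABBV-744 (200 nM) minus ABBV-075 (100 nM), on the log2(FPKM + 1) scale, for each tested gene in each line, with 95% intervals as lines; filled points were called at an adjusted p under 0.05. TNF lies at 1.16 in SKM-1 and at -1.35 in MV-4-11, and NFKBIA at -1.21 in NCI-H1299.

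The rest of the pathway was described with lists of receptors, other ligands, NF-kB proteins, kinases and adaptors, feedback genes and proteins that bind AU-rich elements, the RNA motifs through which many cytokine messages are degraded. These lists, too, were chosen with earlier results of these data known. Among 14 receptors and receptor partners of the members, ABBV-075 gave 5 of 10 tested lower and 1 higher in SKM-1, where 29.2% of all genes were lower and 32% higher. It gave 7 of 11 lower and 2 higher in MV-4-11 (22.1% and 20.3% of all genes), 3 of 4 lower and 1 higher in Kasumi-1 (32.6% and 24.7%), and 2 of 4 lower and 0 higher in NCI-H1299 (26.5% and 20.6%). With ABBV-744, 5 of 11 were lower and 1 higher in MV-4-11 (6.75% and 4.61% of all genes), and in SKM-1 2 of 10 were lower and 3 higher (12.5% and 14.9%). The integrin chains that bind ICAM1 did not move together: in SKM-1 ITGAM (1.32) and ITGB2 (1.24) were higher with ABBV-744, ITGAL was lower with ABBV-075 (-2.47), and in Kasumi-1 ITGB2 was lower with both compounds (-1.80 with ABBV-744 and -2.96 with ABBV-075). These integrin genes and others of the lists named beside small counts were picked after their values were seen. CCR1, a receptor of CCL3, was lower in SKM-1 (-0.93 with ABBV-744 and -1.17 with ABBV-075) and in MV-4-11 (-0.35 and -2.04). The type 2 TNF receptor TNFRSF1B was higher in SKM-1 (0.69 with ABBV-744 and 0.41 with ABBV-075) and lower in Kasumi-1 (-0.75 and -1.13). The median log2 difference of the list with ABBV-075 was -0.65 in SKM-1 and -0.94 in MV-4-11, against 0.05 and -0.01 over all genes tested. IL1RN, the soluble antagonist of the IL-1 receptor, measured 22.9 and 25.1 FPKM in SKM-1 with ABBV-744, 0.828 and 0.678 FPKM with ABBV-075, and 24.5 and 15.9 FPKM with DMSO. The ABBV-075 libraries stood apart (-3.57 ± 0.13, limma adjusted p = 6.24e-12), and the ABBV-744 libraries overlapped DMSO (0.27 ± 0.13, adjusted p = 0.141).

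Of the 22 other ligands, 11 were tested in SKM-1, with 2 higher (CXCL8 and LTB) and 3 lower (CCL5, CCL20 and CCL22) with ABBV-744 and 1 higher (TGFB1) and 6 lower with ABBV-075, and the list's median log2 difference was 0.24 with ABBV-744 and -0.39 with ABBV-075, against 0.05 for all genes in both. In MV-4-11, where 8 were tested, 0 were higher and 1 lower (CCL23) with ABBV-744, and 2 higher (CCL5 and TGFB1) and 3 lower (CCL23, CXCL8 and IL23A) with ABBV-075. In Kasumi-1, of 5 tested, 1 was higher (IL18) and 1 lower (CXCL8) with ABBV-744, and 1 higher (IL18) and 3 lower (CCL5, CXCL8 and MIF) with ABBV-075. Of all genes, ABBV-744 called 14.9% higher and 12.5% lower in SKM-1, 4.61% and 6.75% in MV-4-11, and 8.69% and 15% in Kasumi-1. For ABBV-075 the shares were 32% and 29.2%, 20.3% and 22.1%, and 24.7% and 32.6% in the same lines. The higher counts of SKM-1 with ABBV-744, and of MV-4-11 and Kasumi-1 with ABBV-075, were near these shares. CXCL8 (interleukin-8), a neutrophil attractant like CXCL2, measured 57.7 and 46.0 FPKM in SKM-1 with ABBV-744, 6.41 and 7.73 FPKM with ABBV-075, and 15.2 and 21.97 FPKM with DMSO. The 3 groups did not overlap, with ABBV-744 highest and ABBV-075 lowest, as for IL1B. From DMSO CXCL8 differed by 1.45 ± 0.18 (log2) with ABBV-744 (limma adjusted p = 2.84e-05) and -1.26 ± 0.18 with ABBV-075 (adjusted p = 1.66e-05). With ABBV-075 CXCL8 was also lower in MV-4-11 (-0.58 ± 0.18) and Kasumi-1 (-1.08 ± 0.18). CCL23, a ligand of CCR1, fell by 2.14 on the log2 scale in MV-4-11 with ABBV-075, and MIF, an inhibitor of macrophage migration, fell by 1.97 in Kasumi-1. In NCI-H1299 CXCL1 measured 1.58 and 1.78 FPKM with ABBV-075, against 0.433 and 0.363 FPKM with DMSO. It reached 1 FPKM in that line in the ABBV-075 libraries only. CXCL1 thus passed the filter through the group where it was high, and its test there is not read as a result.

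Of the 10 NF-kB subunits and IkB proteins listed apart from NFKBIA, 2 of 10 tested were called with ABBV-744 in SKM-1, both higher (NFKBID and NFKBIZ), and with ABBV-075 7 were higher and 1 lower (NFKBIB). In MV-4-11 1 was higher with ABBV-744 (NFKBIZ), and 4 were higher (BCL3, NFKB1, NFKBIZ and REL) and 0 lower with ABBV-075. In Kasumi-1, with 9 tested, 3 were higher and 4 lower with ABBV-075, and in NCI-H1299 3 were higher and 3 lower, the names and values of which are plotted with the list. With ABBV-744 14.9% of all genes were higher and 12.5% lower in SKM-1, and 4.61% and 6.75% in MV-4-11. With ABBV-075 these shares were 32% and 29.2% in SKM-1 and 20.3% and 22.1% in MV-4-11. They were 24.7% and 32.6% in Kasumi-1 and 20.6% and 26.5% in NCI-H1299. The higher count of SKM-1 with ABBV-744 and both counts of NCI-H1299 were thus near the shares of all genes. NFKBIZ, an atypical nuclear IkB protein, was higher with ABBV-075 in all 4 lines, at 1.53, 1.06, 1.55 and 1.05 in SKM-1, MV-4-11, Kasumi-1 and NCI-H1299 (SE 0.11 each, limma adjusted p from 7.28e-09 to 1.06e-06), and with ABBV-744 in the 3 leukaemia lines (0.60, 0.50 and 0.47). NFKB1, which encodes a DNA-binding subunit of the dimer, was lower in Kasumi-1 (-0.62 with ABBV-744 and -1.12 with ABBV-075) and in NCI-H1299 (-0.45 and -0.35), and higher in MV-4-11 with ABBV-075 (0.41). RELA, the transactivating subunit, was called in SKM-1 with ABBV-075 only (0.72 ± 0.20, adjusted p = 0.00645), and not without SKM-1 DMSO replicate 2. NFKBIB fell by 1.51 in NCI-H1299 with ABBV-075. The median log2 difference of the list with ABBV-075 was 0.51, 0.33, -0.25 and 0.03 in SKM-1, MV-4-11, Kasumi-1 and NCI-H1299, against 0.05, -0.01, -0.09 and -0.06 over all genes tested.

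ZFP36 (tristetraprolin), which binds AU-rich elements in messages such as that of TNF and speeds their decay, was called higher in all 8 comparisons. It measured 46.4 and 53.6 FPKM in SKM-1 with ABBV-744, 90.6 and 87.1 FPKM with ABBV-075, and 16.3 and 15.2 FPKM with DMSO. In Kasumi-1 it measured 22.7 and 24.9 FPKM with ABBV-744, 85.1 and 59.98 FPKM with ABBV-075, and 11.1 and 9.97 FPKM with DMSO. In both lines the groups stood clear of each other, with ABBV-075 highest. The log2 differences were 1.61, 0.66, 1.1 and 0.53 with ABBV-744 and 2.43, 1.15, 2.65 and 2.11 with ABBV-075 in SKM-1, MV-4-11, Kasumi-1 and NCI-H1299 (SE 0.14 each, limma adjusted p from 4.77e-10 to 0.0351). In each line ZFP36 was lower with ABBV-744 than with ABBV-075 (-0.82, -0.48, -1.55 and -1.58). HNRNPD (AUF1), another AU-rich element binding protein, was lower in SKM-1 with both compounds (-0.80 with ABBV-744 and -1.28 with ABBV-075).

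**Figure D5:**
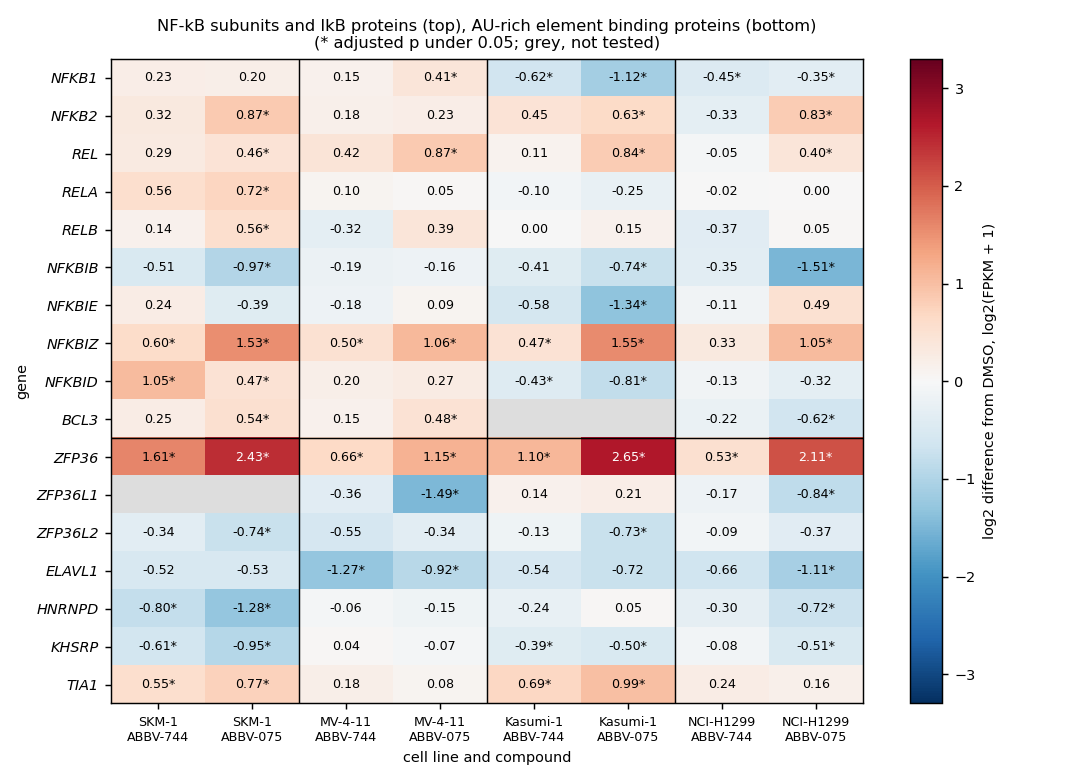
Rows are the NF-kB subunits and IkB proteins (above the line) and the AU-rich element binding proteins (below it); columns, colours, asterisks and grey cells show log2 differences from DMSO, calls and untested genes. ZFP36 is called higher in all 8 columns, from 0.53 to 2.65, and NFKBIZ in 7.

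Among the 17 kinases and adaptors of the pathway, ABBV-075 gave 8 higher and 3 lower of 17 tested in SKM-1, 5 and 1 of 16 in MV-4-11, 8 and 5 of 16 in Kasumi-1, and 5 and 5 of 16 in NCI-H1299. Over all genes 32% were higher and 29.2% lower in SKM-1, 20.3% and 22.1% in MV-4-11, 24.7% and 32.6% in Kasumi-1, and 20.6% and 26.5% in NCI-H1299, so that the lower share of the list in Kasumi-1 was near that of all genes. The list's median log2 differences were 0.23, 0.19, 0.33 and 0.25 in these lines, against 0.05, -0.01, -0.09 and -0.06 over all genes tested. IRAK1, a kinase downstream of the IL-1 receptor, was lower with ABBV-075 in all 4 lines (-2.52, -1.37, -2.66 and -1.53 in SKM-1, MV-4-11, Kasumi-1 and NCI-H1299, SE 0.19 each), and with ABBV-744 in SKM-1 (-0.80) and Kasumi-1 (-0.98). RIPK1, a kinase recruited to the TNF receptor, was higher with ABBV-075 in all 4 lines (1.82, 0.96, 0.92 and 0.66, SE 0.11 each). Of the 20 feedback genes and other targets, 6 of 15 tested were higher and 5 lower in SKM-1 with ABBV-075, and 6 of 15 higher and 0 lower in MV-4-11. In SKM-1 both counts were near the 32% higher and 29.2% lower of all genes, and in MV-4-11 all genes gave 20.3% and 22.1%. The medians of that list were 0.09 in SKM-1 and 0.38 in MV-4-11, against 0.05 and -0.01 over all genes. The 5 lower in SKM-1 were BCL2A1, CD83, IRAK3, PLAU and TNFAIP8. With ABBV-744 5 of 15 were higher and 0 lower in SKM-1 (BCL2A1, CFLAR, CYLD, TNFAIP2 and ZC3H12A), against 14.9% and 12.5% of all genes. BCL2A1, a survival gene of the BCL2 family, was thus higher with ABBV-744 (1.56) and lower with ABBV-075 (-0.55). IER3, an early response gene, measured 3.09 and 3.59 FPKM in MV-4-11 with ABBV-744, 14.1 and 11.0 FPKM with ABBV-075, and 1.49 and 1.64 FPKM with DMSO, in the same order of groups as TNF. TNFAIP8, a TNF-induced gene, fell by 1.59 in SKM-1 with ABBV-075.

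The pathway lists of SKM-1 changed by a few genes without SKM-1 DMSO replicate 2. With ABBV-075 the counts were then 0 higher and 6 lower for the receptors, 1 and 5 for the other ligands, 5 and 2 for the NF-kB and IkB proteins, 7 and 5 for the kinases and adaptors, and 6 and 5 for the feedback genes. With ABBV-744 they were 3 and 2, 2 and 3, 2 and 0, 3 and 1, and 4 and 1 for the same lists. RELA (0.38, adjusted p = 0.113), NFKBID (0.25) and TNFRSF1B (0.36) were then not called with ABBV-075, nor HNRNPD (-0.35) and ZC3H12A (0.31) with ABBV-744, and ITGAM was called lower with ABBV-075 (-0.42). The difference of ITGB2 with ABBV-744 was 0.71, still called. IL1RN (-3.86 with ABBV-075), CXCL8 (1.70 with ABBV-744 and -1.01 with ABBV-075), NFKBIZ (1.56 with ABBV-075), ZFP36 (1.56 and 2.38), IRAK1 (-0.92 and -2.64), RIPK1 (1.79 with ABBV-075), BCL2A1 (1.39 and -0.73) and TNFAIP8 (-1.20 with ABBV-075) were called in the same direction as with that library.

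For each member the genes whose log2 level was most like its own over the means of the 12 groups were looked up, as a description with no test. CCL4 was most like its copy CCL4L2 (Pearson r = 0.993) and CCL3L3 (0.992). CCL3 was most like LY96 (0.986), which encodes a partner of the endotoxin receptor, and LINC00921 (0.981), and TNF most like BTBD11 (0.966) and NAPSA (0.960). IL1B was most like the myeloid genes LST1 (0.961) and SIGLEC5 (0.958), CCL2 most like KCNA3 (0.962) and IGF1 (0.961), and CXCL2 most like CYP4F35P (0.995) and CABYR (0.994). TNFAIP3 was most like CCDC78 (0.978) and CARS (0.969), and NFKBIA most like GPR146 (0.921) and NRIP2 (0.915). ICAM1 had the weakest likeness, with ERGIC3 (0.886) and BIVM-ERCC5 (0.817). These correlations mix differences between lines with responses, since the 12 groups share 4 lines.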

How the data were processed

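The authors deposited 1 table of FPKM values for 24 libraries, with no counts. Depth is therefore unknown, and the FPKM sum per library (543426 to 719215) does not measure it. DESeq2 is named in the submitters' processing notes, without role or version. The sources used here name neither aligner, quantifier, genome build nor annotation. No column was left unmapped.

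Groups were taken from the labels. Values were analysed as log2(FPKM + 1) with limma 3.58.1 in R 4.3.3 (12 group means in 1 fit, contrasts.fit, eBayes with trend and robust, statmod 1.5.0, 12 residual degrees of freedom). A total of 15370 genes was fitted, and a gene was tested where 2 or more libraries of each line compared reached 1 FPKM. Tests were two-sided, with Benjamini-Hochberg adjustment within each of 32 comparisons and calls under 0.05. Whether responses differed between lines was tested by a moderated F-test over genes tested in at least 2 lines. For a single gene and 2 libraries a group, the smallest p of an exact permutation test is 0.333, so the calls depend on a spread pooled over groups and genes. Intervals are at 95%. Errors are SE for log2 differences and SD for FPKM.

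The members and lists were chosen with earlier results of these data known. Besides the members, their copies, CXCL1, CXCL8, NFKB1, RELA and ZFP36, each list named the 2 genes with the largest called difference from DMSO and a mean of at least 5 FPKM in the higher group. Likeness was Pearson's r over group means. Promoter windows came from RefSeq's table (GRCh38.p14) and were searched on both strands with Python 3.11.15. Alternatives were an added constant of 0.1, no filter, median-ratio rescaling, a fit without trend, each line alone, each library left out, and, chosen after seeing the data, summing near-identical copies and repeating the responses and the list genes of SKM-1 without SKM-1 DMSO replicate 2. The procedure was tested on simulated data.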

Additional observations from a re-analysis of the deposited data

Results flagged for a closer look

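Responses that differed between the 4 lines were picked out with limma's F-test, which called 55.5% of 13254 genes with ABBV-075 and 12.4% with ABBV-744, so a call with ABBV-075 is common among all genes. With ABBV-744 the called members were CCL3 (adjusted p = 3.01e-08), TNF (6.30e-05), IL1B (0.000301) and ICAM1 (0.000648), while CXCL2, NFKBIA and TNFAIP3 were not called (adjusted p = 0.304, 0.386 and 0.953). With ABBV-075 all 7 members tested were called: TNF (adjusted p = 2.24e-08), CCL3 (6.35e-08), ICAM1 (6.32e-06), NFKBIA (2.62e-05), TNFAIP3 (0.000356), CXCL2 (0.0147) and IL1B (0.0427). The F-test takes in all 4 lines, also those where a member was under the filter. CCL3, IL1B and TNF were so in Kasumi-1 and NCI-H1299, and CXCL2 in SKM-1 and MV-4-11. Between SKM-1 and MV-4-11 alone the TNF response to ABBV-744 was not called (-0.20, limma adjusted p = 0.616). Nor was the IL1B response to ABBV-075 (-0.18, adjusted p = 0.599). The CCL3 responses to both compounds, TNF with ABBV-075 and IL1B with ABBV-744 were called there.

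ABBV-075 moved 2 members in opposite called directions in different lines. ICAM1 rose in SKM-1 and fell in Kasumi-1, and the responses differed by 2.70 on the log2 scale (SKM-1 minus Kasumi-1). NFKBIA rose in SKM-1 and fell in Kasumi-1, a difference of 0.94, which was 1.13 without SKM-1 DMSO replicate 2. Its response in Kasumi-1 minus that in NCI-H1299, where it rose, was -1.53. The fall of NFKBIA in Kasumi-1 was not called without any 1 of its 4 libraries. Without SKM-1 DMSO replicate 2 the F-test called the same 4 members with ABBV-744 and the same 7 with ABBV-075.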

How the results depend on the processing

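No paired analysis was possible because the labels give no replicate numbers shared between groups. Of 811 member differences recomputed, 727 kept their side of the threshold, 71 were no longer called and 11 became called. Of the 727, 18 that were called in neither case changed sign (-0.26 to 0.17). In 2 differences that had been called the sign changed: CCL4 in SKM-1 with ABBV-075 (-0.00868 without SKM-1 DMSO replicate 2, 0.69 without replicate 1) and CCL3 in DMSO, SKM-1 against MV-4-11 (1.77 when copies were summed). CCL4L2 in SKM-1 with ABBV-075 was -0.38, called, without SKM-1 DMSO replicate 2. Where a library is left out, the lone library of its group is assumed to vary like the others. The causes of the changes below were not tested. Depth is unknown, and genes under 1 FPKM in a line were not tested there. Rescaling moved the median of all genes by at most 0.0821 between compound and DMSO groups and by 0.114 for DMSO, Kasumi-1 against NCI-H1299.

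With each line fitted alone (3 residual degrees of freedom) the number of genes called was 260 against 3604 for ABBV-744 and 5277 against 8058 for ABBV-075 in SKM-1, 927 against 2875 for ABBV-744 in Kasumi-1, and 2739 against 687 for ABBV-744 in NCI-H1299. For ABBV-744 against ABBV-075 it was 2357 against 5740 in SKM-1, 2379 against 4588 in Kasumi-1 and 7881 against 4445 in NCI-H1299. Members called alone were 2 with ABBV-075 in SKM-1, 0 with ABBV-744 in Kasumi-1, 3 with ABBV-744 in NCI-H1299, and 1 and 2 between the compounds in Kasumi-1 and NCI-H1299. An added constant of 0.1 called 190 genes with ABBV-744 in NCI-H1299, 3 members with ABBV-075 in SKM-1 and 1 in NCI-H1299. Rescaling called 1 member with ABBV-075 in NCI-H1299 and 3 between the compounds there.

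With no filter, members called were 2 and 5 in Kasumi-1 with ABBV-744 and ABBV-075, 2 with ABBV-744 in NCI-H1299 and 2 between the compounds there. Between lines in DMSO, no filter called 9925 genes (SKM-1 against MV-4-11), 9571 genes and 9 members (SKM-1 against Kasumi-1), 11451 and 8 (SKM-1 against NCI-H1299), 9289 and 8 (MV-4-11 against Kasumi-1), 11440 and 6 (MV-4-11 against NCI-H1299), and 10903 and 6 (Kasumi-1 against NCI-H1299).

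Leaving out each library in turn moved the genes called with ABBV-744 to 1985 to 6373 in SKM-1, 731 to 867 in MV-4-11, 1733 to 1829 in Kasumi-1 and 312 to 418 in NCI-H1299. The extreme in SKM-1 came without DMSO replicate 1 (6373) and without ABBV-744 replicate 1 (1985). Between the compounds the genes called ran from 1698 to 1829 in MV-4-11, 2591 to 5780 in Kasumi-1 and 2784 to 3078 in NCI-H1299. Members called ran from 1 to 3 between the compounds in Kasumi-1 and from 0 to 1 with ABBV-744 in NCI-H1299, and in that line 1 was called with ABBV-075 under each omission, against 2 with all libraries.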
